A study of Rattus norvegicus with 36 samples.

Results

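Whole blood taken 1 week after X-ray exposure of the thorax (15 Gy, given once) was compared with whole blood of rats that received 0 Gy and were killed at the same week. The comparison holds 6 of the 36 small RNA libraries of the series, 3 per group, chosen by their labels for tissue, dose and week and by no measured value. The series followed microRNAs (miRNAs) in lung and blood of female WAG/RijCmcr rats for 4 weeks after irradiation, with unirradiated controls at 1 and 4 weeks. The irradiated rats were 9 to 10 weeks old at exposure and received 320 kVp X-rays through a field that held the whole lung, the heart and a small part of the liver. The 0 Gy rats were of matched age and kept alike without exposure. Blood was drawn from the heart and extracted whole, with no separation of cells from plasma. By the study's methods, RNA of 3 rats was pooled for each library, while the labels give 3 rats per group, and n counts libraries here. The p-values therefore measure the spread between libraries, and the spread between single rats was not measured.

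A miRNA is a short RNA that guides the silencing machinery to messenger RNAs, mainly through its seed, the bases near the 5′ end that pair with the target. Most miRNA of whole blood comes from red blood cells and their precursors, which carry miR-486, miR-451 and miR-144. By contrast, lymphocytes are rich in miR-150, and neutrophils and other myeloid cells in miR-223. Lymphocytes are among the most radiosensitive cells of the body, and miRNAs of solid tissues such as miR-122 of liver and miR-133a of heart and skeletal muscle can be found in blood when those tissues release them.

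The mature sequences of the miRNAs on which the results turn are given first, from RefSeq (build GRCr8), 5′ to 3′, with the seed (bases 2 to 8) in capitals. RefSeq held a mature sequence for 127 of the 142 tested known rat miRNAs. miR-222-3p, miR-133a-3p and miR-122-5p, of endothelium, muscle and liver, and miR-23b-3p and miR-361-5p are among the known rat miRNAs of smallest p upward. They are shown with miR-221-3p, which has the seed of miR-222-3p but another value.
miR-222-3p: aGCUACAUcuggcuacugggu
miR-221-3p: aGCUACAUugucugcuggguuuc
miR-133a-3p: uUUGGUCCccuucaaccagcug
miR-122-5p: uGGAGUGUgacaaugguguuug
miR-23b-3p: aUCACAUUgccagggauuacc
miR-361-5p: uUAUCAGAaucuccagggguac

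miR-505-3p and miR-3589 are shown together because they come from opposite strands and share 20 bases. They had almost the same log2 fold change.
miR-505-3p: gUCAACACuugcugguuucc
miR-3589: gAGGAAACcagcaaguguugac

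Among the miRNAs with lower levels after 15 Gy, miR-872-5p, miR-342-3p and miR-98-5p are shown, the last beside other members of the let-7 family, whose 7 tested members share 1 seed. miR-30a-5p is shown for its value under the other assignment of the libraries.
miR-872-5p: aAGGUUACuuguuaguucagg
miR-342-3p: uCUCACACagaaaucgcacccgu
miR-98-5p: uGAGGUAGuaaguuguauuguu
let-7a-5p: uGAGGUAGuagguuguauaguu
let-7d-5p: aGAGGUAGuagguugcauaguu
let-7f-5p: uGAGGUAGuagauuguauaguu
miR-30a-5p: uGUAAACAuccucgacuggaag

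The 6 libraries held 1725584 to 2244930 counts each, of which 88.98 to 95.92% belonged to miR-486-5p. The counts left for all other miRNAs were 236705, 175175 and 70470 in the 3 libraries of 0 Gy and 179850, 141677 and 109251 in those of 15 Gy. The number of miRNAs with a count was 428, 413 and 365 at 0 Gy and 436, 409 and 391 after 15 Gy, so that 0 Gy replicate 3 was the shallowest by both measures. Between pairs of these libraries, log2 levels correlated across miRNAs at r = 0.792 to 0.926. In all, 567 of the 947 miRNAs in the table had a count in at least 1 of the 6 libraries, and 289 passed the filter on low counts and were tested. These were 142 known rat miRNAs, 37 homologs of miRNAs known in other species and 110 that the study predicted as new.

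The study's supplementary table of counts lists 0 Gy replicate 1 and 15 Gy replicate 2 under each other's library number. The labels of the deposited table were used for the main values, and the main results are given again with these libraries exchanged. Under the exchange, 0 Gy replicate 1 counts as irradiated and 15 Gy replicate 2 as unirradiated, while the other 4 libraries stay in place. Which assignment is right was not tested.

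After 15 Gy, 1 of 289 miRNAs passed an adjusted p of 0.05 in blood at 1 week, a new miRNA that was higher and that rests on listed values of 0, described further on. This is 0.346% of those tested, by the quasi-likelihood test of edgeR with Benjamini-Hochberg adjustment, and 0 fell. At an unadjusted p under 0.05, 12 were higher (4.15%) and 6 were lower (2.08%). The groups did not overlap for 19 miRNAs that were higher after 15 Gy (6.57%) and 6 that were lower (2.08%), of which 11 and 2 are known rat miRNAs. With the libraries exchanged, edgeR called 0 in either direction, with 8 higher (2.77%) and 6 lower (2.08%) at an unadjusted p under 0.05. The groups then did not overlap for 15 that were higher (5.19%) and 5 that were lower (1.73%). Without both libraries, 1 of 307 passed upward (0.326%) and 1 downward (0.326%).

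DESeq2, another count test, called 2 upward (0.709%) and 4 downward (1.42%) with the deposited labels. The 4 downward were miR-150-5p and 3 new miRNAs, and those upward were new miRNAs. With the libraries exchanged, DESeq2 called 4 upward (1.41%) and 1 downward (0.353%), led by miR-30a-5p and 3 new miRNAs that overlap one another on chromosome 9. The first of them had 1.04 to 1.14 times the count of miR-30a-5p in each of the 18 blood libraries. miR-150-5p was called by DESeq2 only under the deposited labels and without both libraries, among these settings.

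Some new miRNAs were listed at 0 in libraries where an entry that overlaps them had counts. Of the new miRNAs, 61 pairs overlap by at least 50 bases and have counts in blood, and 31 of these pairs had equal counts in every blood library that lists both. In 22 of the 31, 1 of the pair was listed at 0 in some library where the other had at least 10 counts. Calls of DESeq2 are among them. The new miRNA at chr3:118996605-118996685 (rn4), called downward, had 539, 0 and 185 counts at 0 Gy and 0, 0 and 0 after 15 Gy. An entry that overlaps it had 539, 402 and 185 at 0 Gy and 521, 362 and 312 after 15 Gy. The one at chr5:121990580-121990662, called upward, had 26 counts in 15 Gy replicate 2 and 0 in the other 5 libraries, while an entry that overlaps it had 107, 53 and 7 against 43, 26 and 13. Fitted folds of such entries depend on the listed 0 and are no measure of the size of a change.

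**Figure D1:**
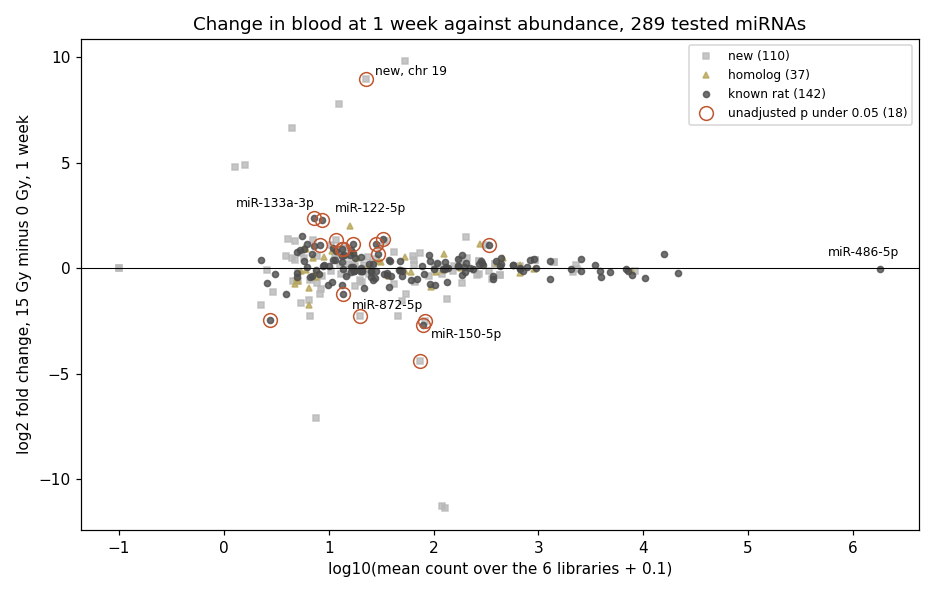
Log2 fold change (15 Gy minus 0 Gy) of each of the 289 tested miRNAs against the log10 of its mean count over the 6 libraries, by class, with the 18 of unadjusted p under 0.05 ringed. Most ringed miRNAs have a mean count near or below 100, and the abundant miR-486-5p lies at -0.01.

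The lowest log2 fold change among known rat miRNAs was that of miR-150-5p, which is abundant in mature B and T lymphocytes and acts on the transcription factor Myb. Its CPM (counts scaled to library totals after TMM scaling) was 32.4, 58.8 and 264.8 in the 0 Gy libraries, and 12.9, 14.35 and 27.6 in those of 15 Gy. The groups did not overlap, but the 0 Gy libraries differed widely among themselves, with replicate 3 far above the other two. The log2 fold change was -2.70 (SE 0.80, edgeR unadjusted p = 0.00446, adjusted p = 0.444), so that it did not pass, and DESeq2 gave -2.97 (SE 0.78, adjusted p = 0.0105). With the libraries exchanged, edgeR gave -2.21, and without both -3.31. Without 0 Gy replicate 3 it was -1.42. In a bulk sample of blood, fewer lymphocytes and less of this RNA per lymphocyte cannot be told apart.

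miR-150-5p stayed at a like level in the later irradiated groups. Its mean CPM was 18.3 ± 8.08 at 1 week, 18.2 ± 5.17 at 2 weeks, 14.5 ± 4.95 at 3 weeks and 29.0 ± 3.76 at 4 weeks of the 15 Gy rats (SD over 3 libraries each). In unirradiated blood it was 119 ± 127 at 1 week and 96.7 ± 90.4 at 4 weeks, with 1 library of each group near or above 200. Replicate 2 of 0 Gy at 4 weeks had 21.9 CPM, inside the range of the irradiated libraries (10.56 to 31.87 CPM). Neighbours in this order within the irradiated groups differed by less than their spread, except that at 4 weeks all 3 libraries lay above those of 3 weeks. From 1 to 2 weeks after 15 Gy the log2 difference was -0.00 (SE 0.76). A new miRNA at chr1:95595998-95596190 (rn4) had 0.900 to 1.37 times the count of miR-150-5p over the 18 blood libraries, and its log2 fold change was -2.51 (SE 0.75). It and another new miRNA inside the same place made up 2 of the 3 new miRNAs that DESeq2 called downward, and they had equal counts in the 15 blood libraries that list both. The smaller was listed at 0 in 15 Gy replicates 2 and 3, where the larger had 24 and 33 counts.

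The other lymphocyte miRNAs gave smaller values. miR-342-3p, which is also rich in lymphocytes, had 7.31, 5.57 and 13.8 CPM at 0 Gy and 3.62, 5.02 and 6.43 CPM after 15 Gy. The ranges overlapped, and its log2 fold change was -0.80 (SE 0.55), or -0.45 under the exchange. miR-181a-5p, which tunes receptor signals in developing lymphocytes, was at 0.17 (SE 0.31) and miR-181b-5p at -0.04 (SE 0.29). Of the 6 lymphocyte miRNAs 4 were tested, with 0 past the adjusted threshold and a median log2 fold change of -0.42, against 0.03 over all 289. Under the exchange the 4 were all negative, with a median of -0.27. The untested members, miR-150-3p and miR-342-5p, had at most 5 and 3 counts in any of the 6 libraries.

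**Figure D2:**
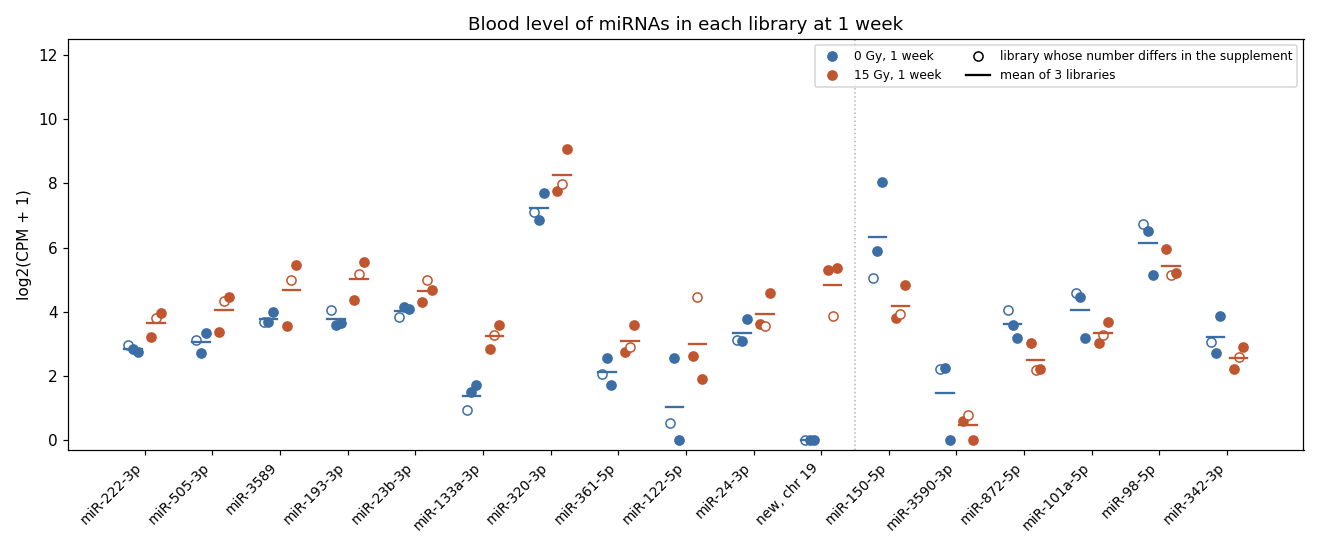
Level of 17 miRNAs in each of the 6 libraries at 1 week, as log2(CPM + 1), with 0 Gy in blue and 15 Gy in orange. Open points are the libraries with differing numbers, and bars are means of the log2 values over 3 libraries. To the right of the dotted line are miRNAs with lower levels after 15 Gy, where the 0 Gy points of miR-150-5p spread from 32.4 to 264.8 CPM.

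The new miRNA that edgeR called was a predicted one with no name beyond its place, chr19:25638547-25638840 (rn4, with no strand in its name). It was listed at 0 in all 3 libraries of 0 Gy at 1 week and had 74, 19 and 44 counts after 15 Gy. Its level after 15 Gy was 38.2, 13.6 and 40.4 CPM, with an edgeR adjusted p of 1.04e-05. It was listed with counts in each of the other 15 blood libraries, and the unirradiated rats of 4 weeks had 58, 80 and 77 counts, at 35.8 ± 3.65 CPM (SD, n = 3). Against that control the log2 fold change was -0.22 (SE 0.41), and with the libraries exchanged it was 2.47. The groups of 15 Gy thus stood at the level of one unirradiated group and above the other. In the 15 blood libraries that held it, it had 0.731 to 2.11 times the count of miR-27a-3p. miR-27a-3p itself had 68, 45 and 15 counts at 0 Gy and 35, 26 and 26 after 15 Gy in the 6 libraries, so that reads of miR-27a-3p were present where the new miRNA was listed at 0. No other new miRNA that overlaps this one by at least 50 bases had counts in blood. Known miRNAs were not part of that search. Whether the listed 0 of the new miRNA stands for absent RNA was not tested.

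**Figure D3:**
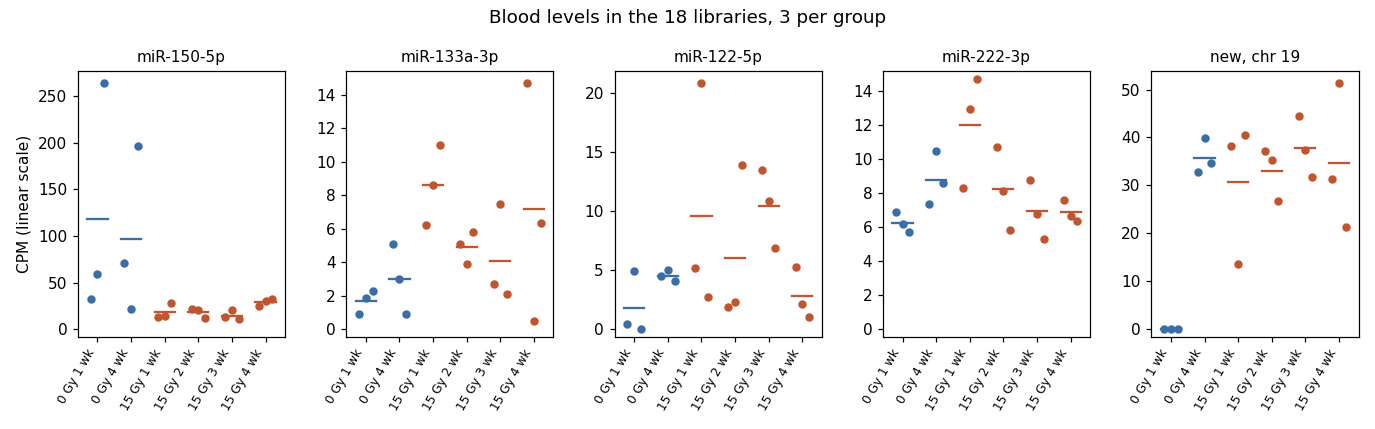
CPM of miR-150-5p, miR-133a-3p, miR-122-5p, miR-222-3p and the new miRNA of chromosome 19 in the 18 blood libraries, on linear axes that differ between panels. Points are libraries, bars are means of 3, blue is 0 Gy and orange is 15 Gy. The new miRNA is listed at 0 only in the group of 0 Gy at 1 week. miR-150-5p lies below 35 CPM in the irradiated libraries. Unirradiated libraries also lie there, at 32.4 CPM (1 week replicate 1) and 21.9 CPM (4 weeks replicate 2).

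miRNAs of solid tissue were searched for next. miR-133a-3p, which is made in heart and skeletal muscle, had 2, 3 and 2 counts at 0 Gy and 12, 12 and 12 counts after 15 Gy. In CPM these were 0.914, 1.86 and 2.29 against 6.20, 8.61 and 11.03, with no overlap. The log2 fold change was 2.38 (SE 0.95, edgeR unadjusted p = 0.0255, adjusted p = 0.614). With the libraries exchanged it was 0.42 and without both 1.78, so that the assignment of the libraries decides its size. The other muscle miRNAs were at or near 0. miR-1-3p, made in the same cells and from the same stretch of chromosome 18, had 1 count in 1 library of 0 Gy and 0 in the other 5. miR-208a-5p and miR-499-5p, of the myosin genes Myh6 and Myh7b, had 0 counts in all 6, and 3 counts over a group, the limit that a 0 allows, would be 0.642 CPM at 0 Gy and 0.679 CPM after 15 Gy. PCR copies of a molecule are not independent, and this limit covers counting error alone. The summed level of the 4 muscle miRNAs was 0.914 to 3.44 CPM at 0 Gy and 6.20 to 11.03 CPM after 15 Gy. The blood was drawn from the heart, and the source of its miR-133a-3p was not tested.

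miR-133a-3p in the other blood groups lay between these levels. It was 2.99 ± 2.09 CPM at 0 Gy 4 weeks, 4.93 ± 0.984 at 15 Gy 2 weeks, 4.09 ± 2.94 at 3 weeks and 7.19 ± 7.16 at 4 weeks (SD, n = 3 each). The libraries of 15 Gy at 1 week did not overlap those of either unirradiated group, while the irradiated libraries of each later week overlapped at least one of these groups. Against 0 Gy at 4 weeks the log2 fold change at 1 week was 1.52.

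miR-122-5p, the main miRNA of hepatocytes, had 1, 8 and 0 counts at 0 Gy and 10, 29 and 3 counts after 15 Gy. Its level was 0.457, 4.95 and 0 CPM against 5.17, 20.8 and 2.76 CPM, and the groups overlapped. The log2 fold change of 2.29 (SE 1.06, edgeR unadjusted p = 0.0478, adjusted p = 0.769) became -1.65 with the libraries exchanged and 0.36 without both. The high value came from 15 Gy replicate 2, which is 1 of the libraries in doubt. miR-192-5p and miR-194-5p, which liver shares with gut and kidney, were at 0.06 (SE 0.38) and 0.10 (SE 0.46). The 3 liver miRNAs were all positive with the deposited labels, and all negative under the exchange.

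Epithelial miRNAs of lung were scarce in blood. Of 10 listed, 2 were tested, miR-183-5p (log2 fold change 1.05, SE 0.78) and miR-182 (0.33, SE 0.30), which come from 1 cluster on chromosome 4. Both stayed positive under the exchange. The other 8, among them the miR-200 family that holds cells in an epithelial state, had at most 11 counts in any of the 6 libraries. Of these, miR-375-3p had 10, 7 and 11 counts at 0 Gy and 5, 6 and 7 after 15 Gy. Its mean CPM was lower after 15 Gy, as were those of miR-141-3p and miR-200b-3p, while the remaining untested members had higher means. miR-143-3p, a smooth muscle miRNA, was present at 119 to 213 CPM at 0 Gy and 109 to 187 CPM after 15 Gy, with a log2 fold change of -0.01 (SE 0.38). Its cluster partner miR-145-5p had at most 2 counts.

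The platelet and endothelial miRNAs gave values of both signs. miR-222-3p, which acts on the receptor Kit and on the cell cycle inhibitor p27, had 6.85, 6.19 and 5.73 CPM at 0 Gy and 8.27, 12.9 and 14.7 CPM after 15 Gy. The groups did not overlap, and its log2 fold change was 0.91 (SE 0.32, edgeR unadjusted p = 0.0127, adjusted p = 0.571). With the libraries exchanged it was 0.23. miR-221-3p, the neighbour of miR-222-3p on chromosome X with the same seed, was at 0.05 (SE 0.39), with 10.05, 11.15 and 13.8 CPM against 6.72, 12.2 and 17.5 CPM. miR-24-3p was at 0.70 (SE 0.35), while miR-126a-3p and miR-126a-5p, both arms of the endothelial hairpin within Egfl7, were at -0.41 (SE 0.61) and -0.26 (SE 0.35). The median of the 5 was 0.05, and under the exchange it was -0.13 with miR-221-3p at -0.13.

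Apart from these, the known rat miRNAs with the smallest p upward were miR-505-3p, miR-3589, miR-193-3p, miR-23b-3p, miR-320-3p and miR-361-5p. miR-320-3p was the most abundant of them, with 136.6, 115.8 and 207.5 CPM at 0 Gy and 218.1, 250.5 and 532.2 CPM after 15 Gy. Its groups did not overlap, and the log2 fold change was 1.12 (SE 0.49, adjusted p = 0.764 from edgeR), or 0.63 under the exchange. miR-193-3p had 15.5, 11.2 and 11.5 CPM against 19.6, 35.2 and 46.0 CPM, which is 1.39 (SE 0.53) as a log2 fold change and 0.47 under the exchange. Against 0 Gy at 4 weeks, where its mean was 36.4 ± 27.4 CPM (SD, n = 3), miR-193-3p was at -0.12.

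miR-505-3p had 7.77, 5.57 and 9.17 CPM at 0 Gy and 9.305, 19.4 and 21.1 CPM after 15 Gy, which is 1.14 (SE 0.42) as a log2 fold change and 0.14 under the exchange. Its opposite strand partner miR-3589 was at 1.13 (SE 0.42) and 0.18 under the exchange, with overlapping groups. The deposited counting is not stated to use strand here, so that reads of these 2 miRNAs cannot be told apart with certainty. miR-23b-3p was at 0.69 (SE 0.27) and -0.18 under the exchange, and miR-361-5p was at 1.09 (SE 0.50) and 0.46 under the exchange. miR-23b-3p comes from a cluster inside Aopep on chromosome 17, where miR-27b-3p was at -0.03. miR-24-3p (0.70) has 2 loci, in this cluster and in one on chromosome 19, where miR-23a-3p was at 0.30 and miR-27a-3p at -0.34. Reads of miR-24-3p cannot be assigned to 1 of the clusters.

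Downward, the known rat miRNAs with the smallest p after miR-150-5p were miR-3590-3p and miR-872-5p. miR-872-5p, made within the gene Ift74 on chromosome 5, had 15.5, 11.15 and 8.03 CPM at 0 Gy and 7.24, 3.59 and 3.68 CPM after 15 Gy. Its groups did not overlap, with a log2 fold change of -1.24 (SE 0.47, adjusted p = 0.571 from edgeR) and 0.24 under the exchange. The 3p arm of the same hairpin, miR-872-3p, was at 0.52, and at -0.26 under the exchange. miR-3590-3p had 8, 6 and 0 counts against 1, 1 and 0, a log2 fold change of -2.44 (SE 0.87), and -0.08 under the exchange. The 7 others of the 10 downward, miR-101a-5p, miR-98-5p, miR-148b-5p, miR-421-3p, miR-342-3p, miR-28-3p and miR-351-5p, had log2 fold changes of -1.21 to -0.45 and overlapping groups. Under the exchange miR-101a-5p (0.15) and miR-98-5p (0.35) turned positive.

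The red cell miRNAs, which make up most of the counts, had log2 fold changes of -0.63 to -0.01. The log2 fold change of miR-486-5p itself was -0.01 (SE 0.48). miR-451-5p, which is cut by Argonaute 2 rather than Dicer and is needed for normal red cell formation, had 3115, 3473 and 911.4 CPM at 0 Gy and 1939, 2269 and 2685 CPM after 15 Gy. All 3 irradiated libraries lay inside the 0 Gy range, with a log2 fold change of -0.12 (SE 0.47). miR-144-5p was at -0.63 (SE 0.63), miR-144-3p from the same hairpin at -0.05 (SE 0.63) and miR-16-5p at -0.48 (SE 0.54). All 5 were negative, with a median of -0.12 and 0 past the threshold, and 2 of them turned positive under the exchange. The median was -0.22 under the exchange and -0.50 without both libraries.

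Myeloid and general leukocyte miRNAs did not pass either. miR-223-3p, the main miRNA of neutrophils and monocytes, had 18.3, 16.1 and 4.59 CPM at 0 Gy and 13.4, 12.2 and 10.1 CPM after 15 Gy. The 15 Gy libraries lay inside the 0 Gy range, with a log2 fold change of -0.15 (SE 0.46). miR-142-5p and miR-142-3p, which are made in cells of all blood lineages, were at 0.01 (SE 0.56) and -0.38 (SE 0.43). The 3 tested members had a median of -0.15, and one of 0.23 under the exchange.

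The let-7 family, which holds back growth genes such as Ras and Myc in mature cells, was negative in 7 of 7 tested members. Their log2 fold changes ran from -0.81 (SE 0.49) for miR-98-5p to -0.01 (SE 0.39) for let-7b-5p, with a median of -0.17 and 0 past the threshold. let-7a-5p had 938.4, 1151 and 802.5 CPM at 0 Gy and 732.0, 809.6 and 499.1 CPM after 15 Gy, which overlap by 1 library. Under the exchange 3 of the 7 were positive. Of all 289 miRNAs, 148 had a positive and 139 a negative value.

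The miR-17-92 cluster on chromosome 15, a growth-promoting cluster of 6 hairpins, had 3 positive and 5 negative values among 8 tested. They ran from -0.90 (SE 0.69) for miR-19b-3p to 0.82 (SE 0.43) for miR-17-1-3p. miR-92a-3p, its most abundant member, had 13480, 14680 and 17610 CPM at 0 Gy and 14780, 13570 and 11350 CPM after 15 Gy, which is -0.21 (SE 0.35) as a log2 fold change. Under the exchange 5 of the 8 were positive, with miR-19b-3p at 0.29 and miR-17-1-3p at -0.06. The related miR-106b-25 cluster within Mcm7 had 2 positive and 3 negative values, from -0.15 to 0.36, with a median of -0.05, and 4 of the 5 were positive under the exchange.

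The miRNAs induced by p53, the regulator of the response to DNA damage, were mostly scarce in blood. Of 9 listed, 3 were tested, miR-192-5p (0.06), miR-194-5p (0.10) and miR-215 (-0.66, SE 0.67). miR-34a-5p, its best known target miRNA, had at most 1 count, and miR-34b-3p and miR-34c-3p had 0 in all 6 libraries. miR-34c-5p had 1, 0 and 1 counts at 0 Gy and 1, 6 and 5 after 15 Gy, with overlapping groups, and was too scarce to be tested. Of the inflammation miRNAs, 4 of 6 were tested, with a median of 0.50 and 0 past the threshold, and a median of 0.20 under the exchange and 0.048 without both libraries. miR-146a-5p, which dampens NF-kB signals, was at 0.92 (SE 0.66) and turned to -0.51 under the exchange, and miR-146b-5p was at 0.11 (SE 0.50). miR-21-5p was at -0.53 (SE 0.45), with 350.4, 317.0 and 98.6 CPM against 251.7, 160.1 and 118.6 CPM, and at 0.32 under the exchange. Its other arm miR-21-3p was at 0.89 (SE 0.46), and at 0.077 under the exchange, with 3 to 5 counts against 5 to 8.

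**Figure D4:**
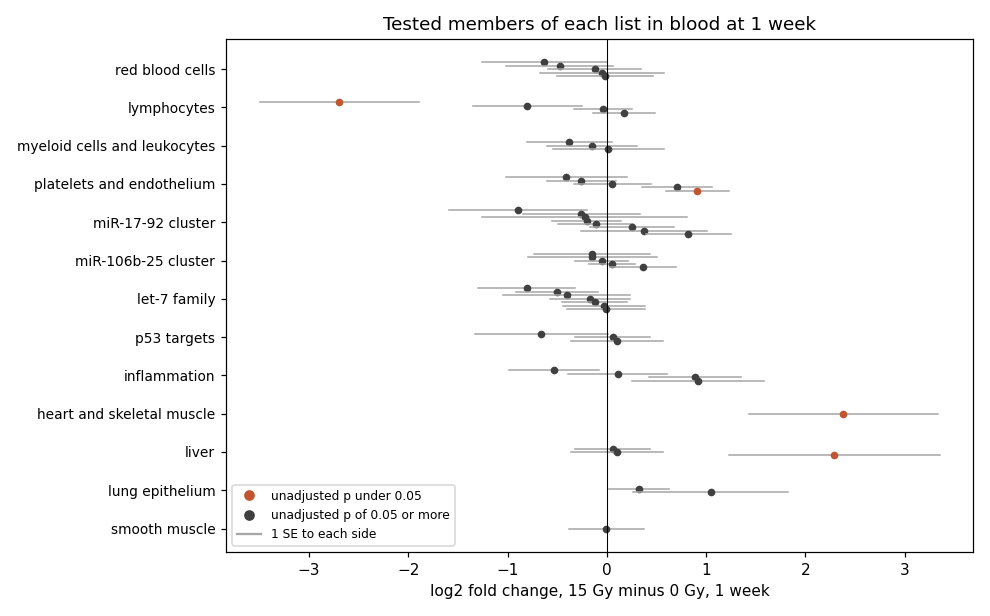
Log2 fold change (15 Gy minus 0 Gy at 1 week) of the tested members of 13 lists, with 1 standard error to each side, from edgeR. Orange points have an unadjusted p under 0.05 (miR-150-5p, miR-222-3p, miR-133a-3p and miR-122-5p), and no point passed the adjusted threshold.

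Sequence relatives were compared for direction. Among the 127 tested miRNAs with a RefSeq sequence there were 95 seeds, of which 20 were shared by at least 2 miRNAs and 5 by at least 3. Of these 5, the let-7 seed was the 1 whose members all had the same sign. The 4 miRNAs with the seed AAAGUGC (miR-17-5p, miR-20a-5p, miR-106b-5p and miR-93-5p) ran from -0.26 to 0.25. Both arms were tested for 22 hairpins, and the arms had the same sign for 11 of them and for 12 under the exchange.

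The spread between libraries of a group differed among the abundant miRNAs. The SD of log2(CPM + 1) within groups was 0.13 for miR-3557-5p, 0.17 for miR-103-3p, 0.20 for miR-92a-3p, 0.21 for miR-15b-5p and 0.24 for miR-22-3p, the 5 lowest among known rat miRNAs of mean count over 100. It was 1.23 for miR-151-3p, 0.99 for let-7d-3p, 0.96 for let-7f-5p, 0.91 for miR-328a-3p and 0.88 for miR-26b-5p, the 5 highest. miR-103-3p had 184.6, 191.9 and 144.5 CPM against 204.7, 190.9 and 216.9 CPM, which is 0.23 (SE 0.25) as a log2 fold change.

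miR-191a-5p, an abundant miRNA that is often used as a reference in blood, varied widely among the 15 Gy libraries. It had 7253, 10060 and 8461 CPM at 0 Gy and 5791, 17110 and 18150 CPM after 15 Gy, and its log2 fold change was 0.67 (SE 0.49). The value was -0.19 under the exchange, 0.097 without both libraries and -0.01 against 0 Gy at 4 weeks, so that its direction depends on the assignment. Scaled to it, the median log2 fold change of all 289 miRNAs was -0.29, against 0.03 with TMM, -0.11 with the size factors of DESeq2 and 0.05 with library totals alone. The share of miRNAs with a positive value was 28.03%, 51.21%, 41.87% and 55.71% in the same order. At an unadjusted p under 0.05, 1 was higher and 8 lower when scaled to miR-191a-5p, and 2 were higher and 5 lower with library totals alone, against 12 and 6 with TMM. Values near 0 above are therefore relative to the scaling.

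**Figure D5:**
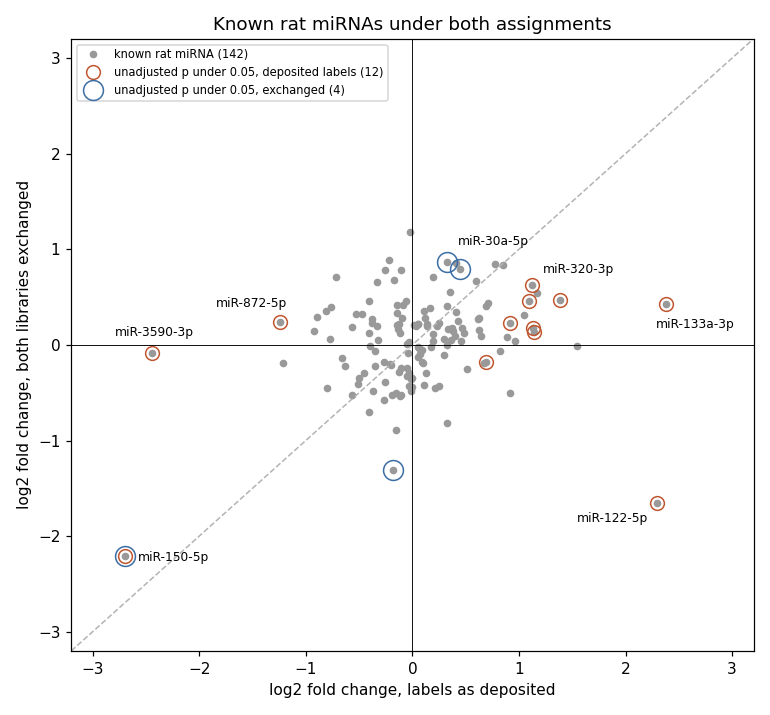
Log2 fold change of the 142 tested known rat miRNAs with the deposited labels (horizontal) and with both libraries exchanged (vertical), where the dashed line marks equal values. Orange rings mark the 12 of unadjusted p under 0.05 with the deposited labels and blue rings the 4 under the exchange, and miR-150-5p carries both.

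Under the exchange, miR-30a-5p had the largest positive value among the known rat miRNAs of unadjusted p under 0.05. Its level was 1103, 671.8 and 384.1 CPM in the libraries labelled 0 Gy and 953.2, 667.5 and 1090 CPM in those labelled 15 Gy. The log2 fold change was 0.33 (SE 0.33) with the deposited labels and 0.87 with 0 Gy replicate 1 and 15 Gy replicate 2 exchanged. Of the 18 miRNAs with an unadjusted p under 0.05 in the deposited labels, 15 kept their sign and 2 kept such a p under the exchange, miR-150-5p and the new miRNA of chromosome 1 that follows it. The assignments share 4 of 6 libraries in place, so that shared signs are no independent repeat.

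Blood at 2 weeks after 15 Gy was compared with blood at 1 week, which needs no control group. edgeR called 0 of 289, with 20 higher (6.92%) and 32 lower (11.1%) at 2 weeks at an unadjusted p under 0.05. DESeq2 called 14 higher (4.96%) and 4 lower (1.42%), and edgeR with the replicate number as a block called 9 higher (3.11%) and 2 lower (0.692%). Scaled by library totals alone, edgeR called 0, with 82 higher (28.4%) and 1 lower (0.346%) at an unadjusted p, so that the direction of the changes depends on the scaling. Of the red cell miRNAs, miR-486-5p had a lower mean at 2 weeks, with 505200 CPM against 1322000 CPM at 1 week, a log2 difference of -1.39 (SE 0.49). The other 4 were positive, from 0.56 for miR-16-5p to 2.09 for miR-144-5p. Of the myeloid and leukocyte miRNAs, miR-223-3p was at -0.00, with means of 11.92 CPM at 1 week and 11.91 CPM at 2 weeks, and miR-142-3p at 1.72. miR-144-5p went from 65.4 ± 28.8 to 278 ± 80.4 CPM (SD, n = 3 each), a log2 difference of 2.09 (SE 0.65), and miR-142-5p from 93.4 ± 22.5 to 334 ± 114 CPM, one of 1.84 (SE 0.58). miR-872-5p went from 4.83 ± 2.08 to 15.2 ± 1.85 CPM, a difference of 1.62 (SE 0.47), and stood above its 1 week level in each later group. miR-505-3p went from 16.6 ± 6.39 to 8.14 ± 0.742 CPM, one of -1.01 (SE 0.41), and miR-320-3p from 334 ± 173 to 150 ± 32.4 CPM, one of -1.15 (SE 0.49). The adjusted p from edgeR was 0.150 for miR-144-5p, miR-142-5p and miR-872-5p. These libraries include 15 Gy 1 week replicate 2, whose number is in doubt. Under the exchange, 0 Gy replicate 1 takes its place. That library had 15.5 CPM in place of 3.59 for miR-872-5p, 7.77 in place of 19.4 for miR-505-3p and 136.6 in place of 250.5 for miR-320-3p. All of these lie inside the range of the 2 week libraries. It had 106.5 CPM in place of 71.8 for miR-144-5p and 93.7 in place of 75.4 for miR-142-5p, below the 2 week libraries.

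The change in blood at 1 week was set against the change in lung of the same weeks and doses. The difference of the changes passed for 1 of 576 miRNAs upward (0.174%) and 0 downward, by edgeR over all 36 libraries, with 12 upward (2.08%) and 18 downward (3.12%) at an unadjusted p under 0.05, and with the libraries exchanged it passed for 0. The 1 was the new miRNA of chromosome 19, with a difference of 9.96 on the log2 scale (SE 1.53, adjusted p = 0.000506), and it had counts in all 6 lung libraries of 1 week, from 27 to 4407. Among known rat miRNAs the smallest p was that of miR-150-5p, with a difference of -2.66 (SE 0.91, edgeR adjusted p = 0.787). Its lung counts were 2545, 2160 and 11 at 0 Gy and 1635, 707 and 1349 after 15 Gy, where the library with 11 is of very low depth. miR-133a-3p had a difference of 1.93 (SE 1.08), with 0 to 78 counts in lung at 0 Gy and 21 to 104 after 15 Gy. miR-122-5p had 1 count in all 6 lung libraries together.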

How the data were processed

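Small RNA libraries (TruSeq) of rat whole blood were sequenced by the study, and the authors trimmed adapters and low-quality bases and mapped reads to miRBase v19 with Bowtie. They set aside what matched other RNA classes and used the remainder to predict new miRNAs with miRanalyzer. The submitters' processing notes name Trim Galore 0.2.5, Bowtie 1.1.1 and the build rn4, and the study tested with DESeq. The deposited values are unscaled counts of reads (integers) of 947 miRNAs in 36 libraries, used here as they are. Reads that fit several places may be counted for more than 1 miRNA. In 3 cases a name stands under 2 classes, and these were kept apart.

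The tests were run with edgeR 4.0.16 in R 4.3.3 (limma 3.58.1). All 18 blood libraries were fitted together in 6 groups of 3, after filterByExpr and TMM scaling, and 15 Gy at 1 week was tested against 0 Gy at 1 week with the quasi-likelihood test. The study used a negative binomial test on the same counts. Benjamini-Hochberg adjustment covered all miRNAs tested, with a threshold of 0.05. The standard error is the size of the log2 fold change over the root of F. CPM after TMM scaling need not sum to the same total in each library, since miR-486-5p dominates the totals. A group at 0 was given a floor of 3 counts over the group, except for new miRNAs, which can be listed at 0 where an overlapping entry has counts. Overlap was taken as at least 50 bases and a count minimum of 10, chosen after values were seen. A pseudocount of 1 was used for log2 levels. The self-test was run on simulated data.

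The miRNAs named are those past the threshold in edgeR, with or without the exchange, or in DESeq2, the 10 known rat miRNAs of smallest p in each direction, the 10 most abundant, the members of the lists, those with the 5 largest and 5 smallest SD within groups, and new miRNAs that track a known one. miR-27a-3p, miR-27b-3p, miR-872-3p and the seed and arm relatives were chosen after their values were seen. The comparison, the lists and the rule were chosen with earlier results of these data known. Alternatives were RLE factors, library totals, miR-191a-5p as reference, no filter, a mean count above 100, DESeq2 1.42.0, only the 6 libraries, known rat miRNAs only, miR-486-5p left out, other control groups, a replicate block, both libraries in doubt exchanged or left out, and each replicate left out.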

Additional observations from a re-analysis of the deposited data

Results flagged for a closer look

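The new miRNA at chr19:25638547-25638840 (rn4) changed differently in blood and in lung at 1 week. The difference of the changes, blood minus lung, was 9.96 on the log2 scale (SE 1.53), with an adjusted p of 0.000506 from edgeR over 36 libraries. In blood it was listed at 0, 0 and 0 counts at 0 Gy and had 74, 19 and 44 after 15 Gy, and in lung 4407, 2562 and 27 at 0 Gy and 2126, 1055 and 3392 after 15 Gy. A fitted difference against a group at 0 depends on the prior count and is no bound. In the 15 blood libraries that held the new miRNA, its count was 0.731 to 2.11 times that of miR-27a-3p. In the 0 Gy libraries where the new miRNA was listed at 0, miR-27a-3p had 68, 45 and 15 counts. The unirradiated blood of 4 weeks held 58, 80 and 77 counts of the new miRNA. The result was not called with both libraries exchanged, where the smallest adjusted p was 0.491.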

How the results depend on the processing

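The number of miRNAs called at 1 week (1 with edgeR) was 0 with only the 6 libraries and with both 0 Gy groups pooled. It was also 0 with 0 Gy at 4 weeks as control and with both libraries exchanged. With a mean count above 100 and with known rat miRNAs only it was 0 as well. The called miRNA, a new one with a mean of 63.6 counts over the blood libraries, was not among the miRNAs tested there. The number was 6 with DESeq2, 5 with DESeq2 and the exchange, 2 without both libraries, 5 without both in DESeq2 and 18 at unadjusted p. With single replicates left out it was 1 to 2, and 2 without 15 Gy replicate 2. The second was a new miRNA at chr11:78139643-78139779 (rn4), with 39, 38 and 22 counts against listed values of 0, 19 and 0. An entry that overlaps it had 0, 61 and 0 counts at 0 Gy and 36, 33 and 0 after 15 Gy. From 1 to 2 weeks after 15 Gy the number called (0) was 18 with DESeq2, 1 without both libraries and 0 to 1 with single replicates left out (1 without 15 Gy 1 week replicate 2). For blood minus lung (1) it was 3 with DESeq2, 0 exchanged, 2 without both and 1 to 2 with single replicates left out, 2 without 15 Gy replicate 1 or 2 in blood. The new miRNA of chromosome 19 had -0.22 against 0 Gy at 4 weeks, and one at chr5:121990580-121990662, with counts in 1 library only of the 6 (26 in 15 Gy replicate 2) and an overlapping entry with counts in all 6, had -20.2 with DESeq2 and the exchange. The cause was not tested. Leaving out both libraries with DESeq2, or in the comparisons with 2 weeks and with lung, was added after seeing the data.

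Same-numbered libraries of the 0 Gy and 15 Gy groups at 1 week deviated together at r = 0.198, -0.0956 and 0.288. Libraries of differing number did so at -0.296 to 0.228. With 3 libraries per group, these values cannot decide whether the numbers pair the samples. The fit with the replicate block called 1 at 1 week, 11 from 1 to 2 weeks and 1 for blood minus lung.

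List medians moved beyond the replicate spread as follows. For myeloid miRNAs (-0.15) the median was -0.42 scaled to miR-191a-5p, 0.23 exchanged and 0.15 exchanged with DESeq2. For platelets and endothelium (0.05) it was -0.54 scaled to miR-191a-5p, for miR-17-92 (-0.16) 0.29 without both in DESeq2, and for let-7 (-0.17) -0.55 without both and -0.50 in DESeq2. For inflammation (0.50) it was 0.016 scaled to miR-191a-5p, -0.30 with a mean count above 100 and -0.26 with only the 6 libraries (2 members each), 0.17 against 0 Gy at 4 weeks, 0.20 exchanged, 0.092 exchanged with DESeq2, 0.048 without both and 0.086 without both in DESeq2. With single replicates left out, the medians ran from -0.59 to -0.13 for red cells, -0.74 to -0.15 for lymphocytes, -0.48 to 0.041 for myeloid, -0.28 to 0.19 for platelets and endothelium, -0.33 to 0.41 for miR-17-92, -0.25 to 0.24 for miR-106b-25, -0.57 to -0.060 for let-7, -0.32 to 0.20 for p53 targets, 0.14 to 0.75 for inflammation and -0.22 to 0.28 for liver. Of the 20 known rat miRNAs of smallest p, all kept their sign under RLE factors, library totals, miR-191a-5p scaling, no filter, DESeq2 and the block, and 15 kept it with the exchange and 15 against 0 Gy at 4 weeks. Counts beyond miR-486-5p, 70470 to 236705 per library, limit what can be seen of scarce miRNAs.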

Other observations

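Pairs of tested miRNAs whose mature places lie over each other on opposite strands had values of the same sign with the deposited labels. Of 9 such pairs on GRCr8 with at least 15 shared bases, the log2 fold changes had the same sign in each pair, while levels and sizes could differ. let-7a-5p was at -0.50 and its opposite strand partner miR-3596a at -0.32, miR-130a-3p was at -0.38 and miR-3590-5p at -0.40, miR-210-3p was at -0.35 and miR-3574 at -0.21, let-7f-5p was at -0.41 and miR-3596d at -0.09, and miR-183-5p was at 1.05 and miR-3553 at 0.69. Under the exchange the signs differed for let-7a-5p (-0.35) and miR-3596a (0.050), and for miR-130a-3p (0.27) and miR-3590-5p (-0.01). Whether reads of a pair were counted for both was not tested.

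Members of the miR-101 family had negative values with the deposited labels and positive ones with the exchange, with overlapping groups, and none passed an unadjusted p of 0.05. miR-101a-3p and miR-101b-3p, which share the seed ACAGUAC, were both at -0.77, and the minor arm miR-101a-5p was at -0.92 (SE 0.53), with a median of 0.23 for the first pair under the exchange. miR-26a-5p and miR-26b-5p, with the seed UCAAGUA, were at -0.14 and -0.33, and both were positive under the exchange. miR-19a-3p and miR-19b-3p, with the seed GUGCAAA, were at -0.22 and -0.90, and both were positive under the exchange. These families were chosen after their values were seen.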
